A study of Arabidopsis thaliana with 9 samples.

Results

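The Arabidopsis thaliana mutant line1135 was compared with the wild-type control, through every probe set of the Affymetrix ATH1 array other than its control features. The comparison rests on 6 of the 9 arrays of the series, 3 of line1135 and 3 of the control, assigned by their sample titles. The other 3 arrays, of the mutant line774, entered the same fit and served for a direct comparison between the lines. RNA came from whole plants at growth stage 1.04, grown on plates of 50 seeds for 17 days at 21 °C, with days of 16 h light and 8 h dark. The series title speaks of epigenetic mutants, but the labels name the mutated gene of neither line. A T-DNA insertion label stands on all 9 samples, the control included, so no targeted gene could be checked. Each line carries a single source name in the labels, so line1135 stands for 1 line and not for several independent ones. The labels do not say whether the 3 samples of a group were grown separately, so the p-values cover the variation among these samples alone, part or all of which may be technical.

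Plants keep most transposons silent through DNA methylation and repressive histone marks, and the silenced copies crowd into the heterochromatin around the centromeres. When that silencing is lost, transposon remnants are transcribed, and so are some ordinary genes that carry the same marks or lie beside a transposon. In the RefSeq gene table used here, most transposon loci carry a pseudogene type, and that class (pseudogene or transcribed pseudogene) stands for them below. The table has no class of its own for transposons, so the class also holds pseudogenes of ordinary genes.

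Values are MAS5 signals, a linear intensity per probe set that had been scaled to a common mean on each array. Changes are log2 differences of signal + 16, line1135 minus control, with their standard errors and with limma's p-values adjusted over all 22746 probe sets tested. A call needed both an adjusted p under 0.05 and a 2-fold or larger change, and the added 16 understates the change of dim transcripts. Where all 3 arrays of the dimmer group were at or below the highest Bacillus control signal, which lay between 5.36 and 13.4 per array, the fold is a lower bound. Array medians were 35.3 to 37.1 in line1135 and 35.5 to 36.1 in the control. Rank correlations were 0.964 to 0.971 among line1135 arrays, 0.972 to 0.975 among control arrays and 0.934 to 0.945 between the groups. The arrays measured RNA of whole plants, in which fewer cells of a type and less RNA per cell cannot be told apart. Of 3 root, 2 pollen and 3 senescence markers that were measured, 1 passed at any fold, a root marker with the lower signal in line1135. The root gene PYK10 averaged 3049 in line1135 and 3296 in the control, and the pollen gene MGH3 was near background at 2.16 in line1135 and 2.51 in the control. Seed and flower markers were not measured by a named probe set, and the part of plant composition in the results was not tested.

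In line1135, 242 probe sets were called higher (1.06% of those tested) and 278 lower (1.22%). Increases and decreases fell in different kinds of loci. Of the 989 pseudogene-type probe sets, 148 were called higher (15%) and 1 lower (0.101%). Of the 12443 protein-coding probe sets, 53 were called higher (0.426%) and 130 lower (1.04%). The remaining calls, 41 higher and 147 lower, lay in probe sets with no single gene named in the annotation used here. The decreases of the pseudogene type could hardly have been called, since 972 of its 989 control means lay below 16, where even a complete loss of signal stays under the 2-fold limit.

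The protein-coding increases started from different control levels. For 19 of the 53 all 3 control arrays were at background, and for 22 none was. Their median signal was 115 in line1135 and 7.56 in the control, and their median log2 change was 1.31. The protein-coding decreases were of another form. Their median signal was 60.4 in line1135 and 177 in the control, so most of the genes that fell were still detected, and for 5 of 130 probe sets line1135 was at background on all 3 arrays. All 130 were read by probe sets ending in _at, whose probes are designed for 1 gene, as were 48 of the 53 increases.

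SQN, or SQUINT, is a cyclophilin that promotes the activity of microRNAs and with it the timing of vegetative development. Its signals were 625, 819 and 729.5 in line1135, against 68.0, 63.9 and 55.0 in the control. The lowest line1135 array thus lay far above the highest control array, and the change was 3.24 ± 0.14 (adjusted p = 7.77e-08). SQN was well above background in the control, so it was raised from an existing level and not switched on. QQS, a gene without relatives in other species that influences starch storage and is known to be controlled by DNA methylation, had signals of 1327, 1241 and 1294 in line1135 and 163, 138 and 133 in the control. It rose by 3.02 ± 0.08 (adjusted p = 1.14e-09), with a narrow spread in both groups.

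Most of the other large protein-coding increases were in loci for which the tables used here give no name or function. AT1G36240 had signals of 995, 811 and 876 in line1135, against 9.96, 7.47 and 5.33 in the control (5.27 ± 0.11, adjusted p = 1.19e-10). AT4G29200 had 300.4, 229 and 378 in line1135 and 3.43, 5.59 and 3.28 in the control, at least 49.4-fold higher (adjusted p = 1.72e-08). AT4G29200 was at background on all 3 control arrays, whereas AT1G36240 was at background on 1 of them and slightly above it on the other two. AT5G07570 had 147, 212 and 196 in line1135 and 0.576, 0.883 and 0.928 in the control, at least 30.5-fold higher (adjusted p = 1.67e-07). AT5G29050 reached only 51.9, 38.6 and 62.9 in line1135, against 0.461, 0.986 and 0.766 in the control, at least 8.37-fold higher (adjusted p = 1.73e-05). Both were at background on all 3 control arrays and above it on every line1135 array. AT1G47400 was detected in the control, with 12.5, 19.1 and 13.3, and had 169, 182 and 145 in line1135 (2.55 ± 0.12, adjusted p = 1.74e-07).

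The other large increases among _at probe sets were those of AT5G01080 (3.82 ± 0.12), AT2G15560 (2.63 ± 0.14), AT1G58025 (2.62 ± 0.12), AT5G24480 (2.50 ± 0.15) and AT5G03090 (2.42 ± 0.27). Their adjusted p-values lay at or below 0.000213. Of these, AT5G03090 varied most in the control, with signals of 2.31, 8.13 and 21.6, and had 126, 103 and 135 in line1135. Another 3 of the 15 largest increases were read by probes shared between loci, so that their signal may come from related copies. AT1G59930, the largest of all protein-coding increases on the offset scale, was one of them. It had 1215, 1117 and 1663 in line1135 and 6.26, 9.55 and 2.93 in the control (5.91 ± 0.20, adjusted p = 8.83e-09). AT5G15690 was at least 19.1-fold and AT2G13760 at least 11.7-fold higher.

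**Figure D1:**
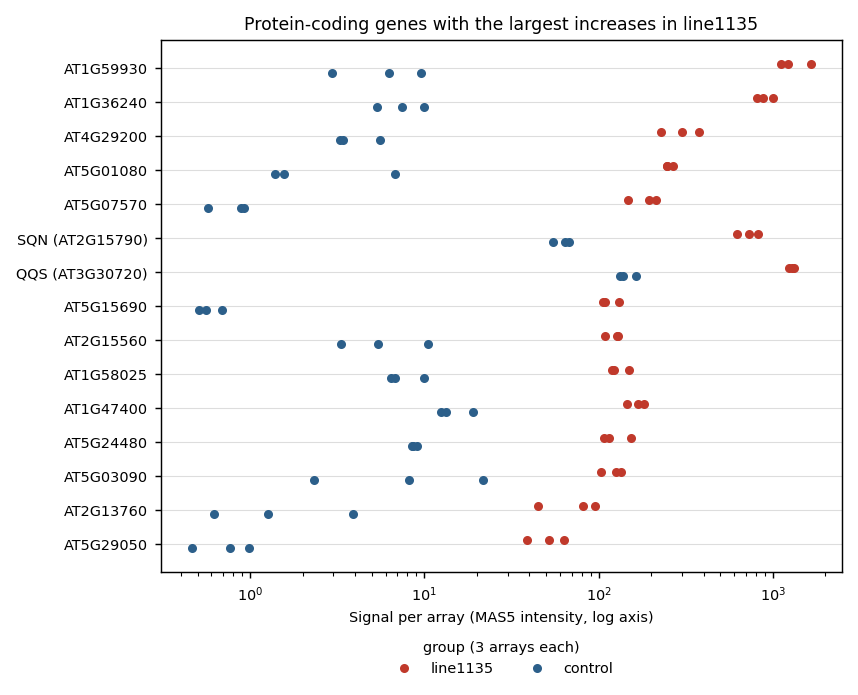
Signal on each array (MAS5 intensity, log axis) of the 15 protein-coding genes with the largest increases, 3 line1135 arrays in red and 3 control arrays in blue. By the rule that chose them, no gene has overlapping groups. SQN and QQS stand out by control signals above 50, while the control signals of the others stay between 0.461 and 21.6.

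Smaller increases included 4 genes with a known product, which were picked because they were called and carry a symbol. Cpn60beta2, a subunit of the chaperonin that folds chloroplast proteins, had signals of 816, 684 and 700.4 in line1135 and 271, 361 and 345 in the control (1.14 ± 0.11, adjusted p = 7.56e-05). Hsp70-2, a chaperone of the heat shock protein family, averaged 113 ± 11 in line1135 and 44.7 ± 2.53 in the control (SD, n = 3 each, limma adjusted p = 0.000425). GH3.3, an enzyme that conjugates auxin to amino acids, had 371, 261 and 329 in line1135 and 177, 116 and 129 in the control (1.11 ± 0.16, adjusted p = 0.000954). MSRB9, a reductase that repairs oxidised methionine, had 303, 316 and 262 in line1135 and 107, 164 and 148 in the control. It changed by 1.01 ± 0.13, just past the 2-fold limit. GH3.3 was the 1 member called, and the 1 that passed at any fold, among the 12 measured genes of the auxin list, whose median change was 0.01. GH3.17 changed by 0.05 ± 0.12 (adjusted p = 0.856) and WES1, another GH3 gene, by -0.43 ± 0.18 (adjusted p = 0.147). The groups did not overlap in any of these 4 genes, as in 30.9% of all probe sets, but the calls of GH3.3 and MSRB9 were each lost when some single array was left out. GH3.3 changed by less than 2-fold without control replicate 2, and MSRB9 without control replicate 1, line1135 replicate 1 or line1135 replicate 2, and also after median scaling.

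OCT1, an organic cation and carnitine transporter of the plasma membrane, showed the largest decrease. Its signals were 4.77, 1.60 and 2.18 in line1135, against 435, 411 and 325 in the control. It was therefore at background on every line1135 array and at least 42.0-fold lower there (adjusted p = 1.67e-07). The other measured members of its family moved less, by -0.63 ± 0.15 for OCT4 (adjusted p = 0.0202) and 0.67 ± 0.16 for OCT5 (adjusted p = 0.0204). The near loss of signal was thus not shared by those 2 relatives.

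A set of genes known from cold, drought and abscisic acid responses was lower. HIS1-3, a linker histone induced by drought, had signals of 34.2, 32 and 44 in line1135 and 318, 198 and 203 in the control (-2.25 ± 0.18, adjusted p = 1.74e-05). COR15A, which protects chloroplast membranes in the cold, had 94.4, 48.3 and 50.0 in line1135 and 422, 282 and 315 in the control (-2.18 ± 0.34, adjusted p = 0.00192). Both had line1135 arrays wholly below the control arrays, with COR15A the more variable. Of the 5 measured genes of this list, these 2 were called lower and 0 higher, against 1.22% of all probe sets called lower. At any fold 4 of the 5 passed, all lower, against 6.86% of all probe sets lower and 6.74% higher at any fold. The dehydrin genes LTI30 and COR47 fell by 0.87 and 0.40 with adjusted p-values of 0.0147 and 0.0454, and COR15B changed by -0.18 ± 0.23 (adjusted p = 0.677). The list's median change was -0.87, against 0.03 over all loci read by 1 named probe set each. This and the other gene lists were chosen with earlier results of these data known. Their counts and medians therefore describe these data and support nothing further.

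All 3 measured genes of the salicylic acid and pathogenesis-related list were called lower, as were 1.22% of all probe sets and 1.04% of the protein-coding ones. ChiC, a chitinase that cuts chitin of fungal walls, had 52.9, 50.8 and 37.5 in line1135 and 323, 264 and 216 in the control (-2.16 ± 0.16, adjusted p = 9.4e-06). CHI, another chitinase, had 52.7, 110.2 and 52.2 in line1135 and 233, 163 and 162 in the control (-1.25 ± 0.22, adjusted p = 0.0040). OSM34, an osmotin-like protein, had 363, 601 and 461 in line1135 and 1060, 1140 and 872 in the control (-1.10 ± 0.21, adjusted p = 0.00641), a change under 2-fold without line1135 replicate 1. These were the only 3 of 15 listed genes that the annotation names. Any probe sets of the others would be among those with no single gene named, and were not identified here. Among the 15 measured defensins and defensin-like genes, LCR68 was called lower, with 422, 477 and 433 in line1135 and 1015, 1020 and 988 in the control (-1.16 ± 0.12, adjusted p = 0.000131). LCR69 changed in the opposite direction, by 0.69 ± 0.08 (adjusted p = 0.000217), with a mean signal of 1445 in line1135.

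The list of sugar starvation and dark-induced genes had 3 measured members. GAT1_2.1, a glutamine amidotransferase-like protein, had 25, 31.6 and 20.3 in line1135 and 187, 173 and 145 in the control (-2.15 ± 0.17, adjusted p = 1.27e-05). AT2G20670 had 285, 148 and 355 in line1135 and 1279, 899 and 856 in the control (-1.94 ± 0.35, adjusted p = 0.00384). The third measured member, AKINBETA1, a subunit of the plant energy-sensing kinase complex, fell by 0.60 (adjusted p = 0.00548). All 3 were thus lower, 2 of them past the 2-fold limit, against 6.86% of all probe sets lower at any fold and 1.22% called lower.

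A list of amino acid breakdown genes was drawn up after their values had been seen, so its counts describe and support nothing further. Of its 9 measured members, 4 were called lower and 7 were lower at any fold, against 1.22% and 6.86% of all probe sets. LKR/SDH (AT4G33150), the bifunctional enzyme that starts lysine breakdown, had 214, 182 and 156 in line1135 and 546, 464 and 587 in the control (-1.46 ± 0.17, adjusted p = 0.000232). MGL, the lyase that splits methionine, had 123, 117 and 115 in line1135 and 369, 247 and 331 in the control (-1.28 ± 0.12, adjusted p = 6.15e-05). The line1135 arrays lay close together for MGL and were more spread for LKR/SDH. ALDH7B4, an aldehyde dehydrogenase of lysine breakdown and stress responses, averaged 582 ± 80.6 in line1135 and 1506 ± 183 in the control (SD, n = 3 each, limma adjusted p = 0.000391). MCCA, a subunit of the carboxylase of leucine breakdown, averaged 111 ± 10.7 in line1135 and 249.7 ± 36.8 in the control (SD, n = 3 each, limma adjusted p = 0.000116). Its change of -1.06 was under 2-fold without control replicate 3 or line1135 replicate 1. IVD, an enzyme of the same pathway, fell by 0.84, and MCCB, the partner subunit of MCCA, had a change of -0.20 ± 0.09 that did not pass (adjusted p = 0.173).

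Autophagy genes moved by small amounts. Of the 11 measured genes, 0 were called at 2-fold and 6 were lower at any fold, with a list median of -0.41. Over all probe sets 6.86% were lower at any fold. Of the 11, 9 belong to the ATG8 family, small ubiquitin-like proteins that are attached to autophagosome membranes, and the 6 that fell are among these 9. ATG8B had the largest change of them (-0.67 ± 0.17, adjusted p = 0.0251), and ATG8F, with the highest signal, averaged 953 in line1135 and 1269 in the control. Of the other two, ATG3 changed by -0.19 ± 0.10 (adjusted p = 0.237) and AT5G66930 by -0.39 ± 0.13 (adjusted p = 0.0649).

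Other decreases with a known product covered several functions. CCL, whose transcript is known for its instability and its daily rhythm, had 898, 784 and 892 in line1135 and 3263, 2661 and 2682 in the control (-1.72 ± 0.15, adjusted p = 3.44e-05). UPB1, a transcription factor that controls peroxidases at the root's transition from division to elongation, had 46.7, 38.4 and 37.9 in line1135 and 163, 144 and 100.1 in the control (-1.39 ± 0.18, adjusted p = 0.000607). SIS, named as a salt-induced serine-rich protein, had 79.3, 67.0 and 60.7 in line1135 and 349, 185 and 191 in the control (-1.55 ± 0.21). The groups stayed apart in all of these, even where the first control array of SIS lay well above the other control arrays. The transcription factor gene AT5G61590 (DEWAX), a repressor of wax synthesis, averaged 579 ± 68.7 in line1135 and 1257 ± 160.4 in the control (SD, n = 3 each, limma adjusted p = 0.000141). FDH, formate dehydrogenase of mitochondria, averaged 947 ± 76.0 in line1135 and 1957 ± 113 in the control (SD, n = 3 each, limma adjusted p = 9.99e-05). MAP1B, an organellar methionine aminopeptidase, changed by -1.37 ± 0.24, and CHX20, a cation and proton exchanger of guard cells, by -1.10 ± 0.19. The calls of FDH and CHX20 depended on single arrays, on line1135 replicate 1 for FDH and on control replicate 1, line1135 replicate 2 or line1135 replicate 3 for CHX20.

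The remaining large decreases were in loci with no name in the tables used here. AT1G19200 had 8.79, 2.52 and 5.83 in line1135, against 163, 157 and 147 in the control (-2.99 ± 0.17, adjusted p = 8.26e-07), and so came close to background in line1135. AT4G22490 had 46.2, 49.1 and 32 in line1135 and 340.0, 331 and 297 in the control (-2.55 ± 0.20, adjusted p = 1.4e-05). AT5G17340 was at background on all 3 line1135 arrays and at least 5.90-fold lower (adjusted p = 0.00138), although its control signals were spread, at 83.2, 65.3 and 29.7. The other 11 loci without a name among the 20 largest decreases, not counting AT2G20670, had changes between -2.38 (AT5G20790) and -1.75 (AT2G32150). By the rule that chose them, every line1135 array lay below every control array in each of the 20.

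**Figure D2:**
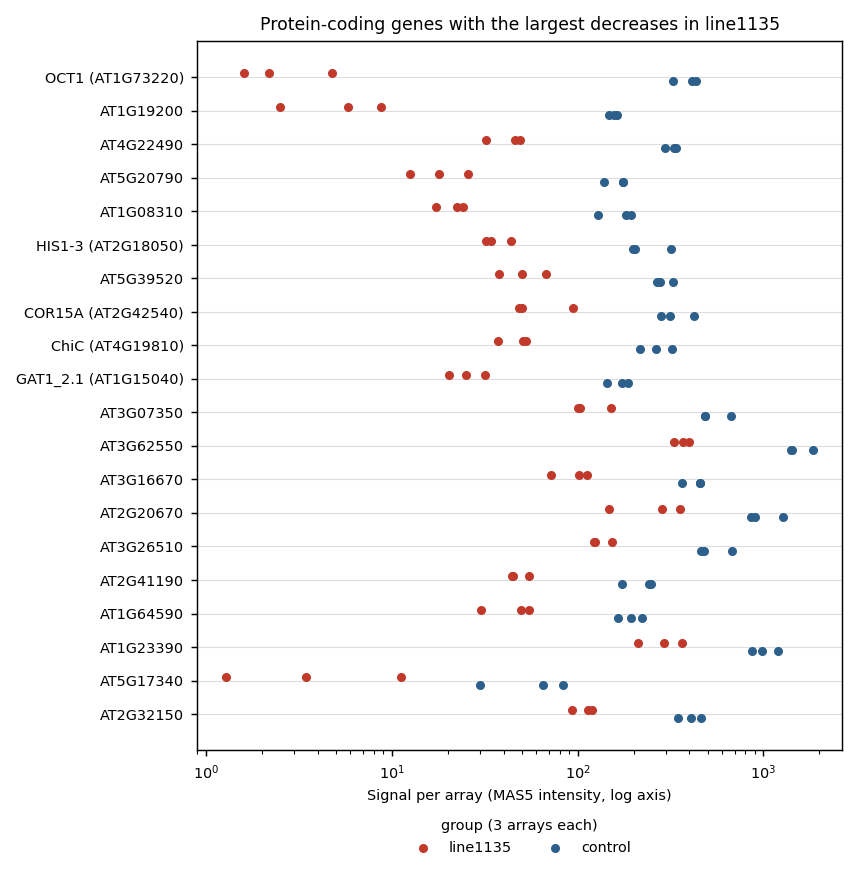
Signal on each array (MAS5 intensity, log axis) of the 20 protein-coding genes with the largest decreases, 3 line1135 arrays in red and 3 control arrays in blue. OCT1, AT1G19200 and AT5G17340 come down to signals below 13.4, the highest background of any array, while the other 17 genes remain above it on most line1135 arrays.

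Several large gene families gave few or no calls. Of 51 measured UDP-glycosyltransferases, 1 was called lower, UGT85A5, with 23.5, 10.2 and 10.4 in line1135 and 72.9, 45.8 and 50.5 in the control (-1.25 ± 0.19, adjusted p = 0.00166). At any fold 8 of the 51 were lower and 1 higher. Of 14 glutathione transferases 0 were called, with 4 lower and 1 higher at any fold, among them GSTU16 at -0.86 ± 0.09 (adjusted p = 0.000127). Of 22 cytochrome P450 genes 0 were called and 3 were lower at any fold. Of 32 cell wall genes 0 were called, with 4 higher and 4 lower at any fold. Of 7 measured cell cycle genes 3 rose at less than 2-fold, the Aurora kinases AUR1 and AUR2 and PRL, a subunit of the replicative helicase. AUR2 changed by 0.70 ± 0.13 (adjusted p = 0.00553), and the change of AUR1, at 0.45 ± 0.11, no longer passed without control replicate 1, control replicate 3 or line1135 replicate 3. None of the 69 plastid-encoded genes was called, although 3 were higher at any fold by limma, and of the 7 measured nuclear photosynthesis genes 0 passed at any fold. Over all protein-coding probe sets 5.53% were higher and 6.2% lower at any fold. Most members of most lists are not named in the annotation used here, so a list's count covers only its measured part.

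**Figure D3:**
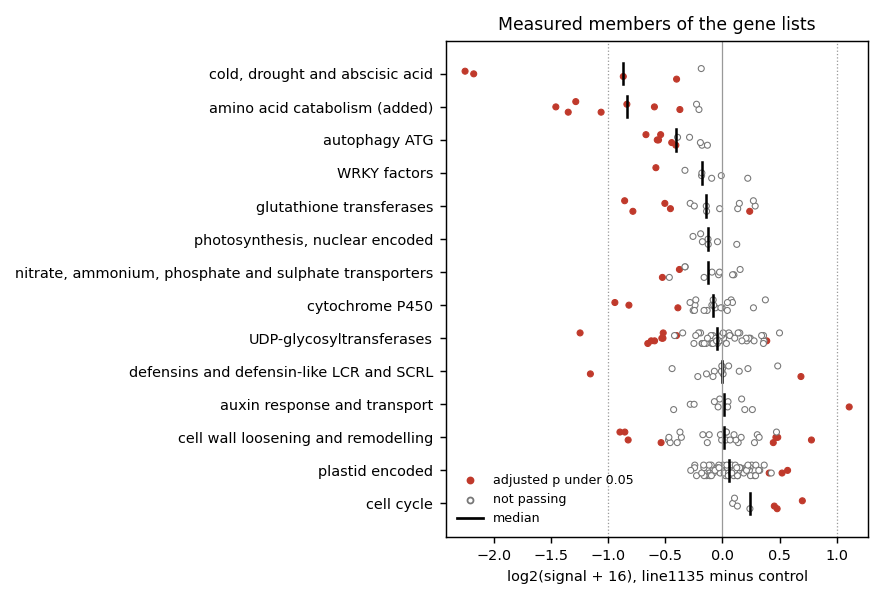
Change of each measured member of the gene lists with at least 5 measured members (log2 difference of signal + 16, line1135 minus control), with members passing an adjusted p under 0.05 in red, other members open, and the list median as a black bar. The cold, amino acid and autophagy lists have medians of -0.87, -0.84 and -0.41, and the list of methylation-silenced and imprinted genes and 1 list of transcription factors are not drawn.

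The reactivated loci of pseudogene type were largely dark in the control. The 148 that were called higher had a median signal of 83.1 in line1135 and 2.12 in the control, and 98 of them were at background on all 3 control arrays. Their median log2 change was 2.25, with a range from 1.01 to 7.49. Of the 148, 61 were read by _at probe sets and 87 by probes shared between loci, so the number of separate loci that rose cannot be read from the count. Over the whole class the median change was 0.12 and 73.3% of changes were positive, against 0.02 and 54.1% over all probe sets. The 1 locus of the class that was called lower, AT4G04410, had 0.632, 1.15 and 1.16 in line1135 and 20.4, 17.8 and 21.4 in the control. On the list of genes known to be silenced by DNA methylation or imprinted, 2 of 5 measured members were called higher, QQS and AT2G04770. Over all probe sets 1.06% were called higher, and 15% of the pseudogene type, to which AT2G04770 belongs. The other members, YKT61, MPC and AT1G48180, changed by -0.02, 0.07 and -0.35 and did not pass. AT2G04770 had 1058, 1025 and 1478 in line1135 and 1.00, 1.15 and 4.91 in the control, read by a probe set with shared probes.

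All 5 nuclear chromosomes contributed. The share of pseudogene-type probe sets called higher was 14.5% on chromosome 1 (28 of 193), 18.5% on chromosome 2 (55 of 298), 14% on chromosome 3 (29 of 207), 13.8% on chromosome 4 (24 of 174) and 10.3% on chromosome 5 (12 of 117). These shares depend on the probe sets with shared probes. Among _at probe sets alone they were 9.46% on chromosome 1 (14 of 148), 8.37% on chromosome 2 (20 of 239), 4.14% on chromosome 3 (7 of 169), 7.25% on chromosome 4 (10 of 138) and 9.62% on chromosome 5 (10 of 104). Chromosome 2 had the highest share and chromosome 5 the lowest with all probe sets, whereas with _at probe sets chromosome 5 had the highest and chromosome 3 the lowest. The order of the chromosomes therefore depends on which probe sets are counted, and no test was made of it.

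Position was read from the order of loci in the TAIR10.1 gene table, with no coordinates, because the arrays name no genome build. Each locus was given the share of pseudogene-type loci among up to 50 neighbours on each side. On chromosomes 1, 3 and 5 this share had a single broad peak, and on chromosomes 2 and 4 it had 2. The longest runs of loci with a share of at least 50% ran from AT1G36085 to AT1G43130, from AT2G07760 to AT2G13440, from AT3G29631 to AT3G43420, from AT4G05553 to AT4G08180 and from AT5G28520 to AT5G35330. These runs held 8, 19, 15, 6 and 8 of the pseudogene-type loci called higher on chromosomes 1 to 5. Other called loci lay in shorter runs and on the flanks, and some lay on the arms, 13 with a share under 5% and 9 with a share of 5 to 10%. The outermost ones were AT1G10160 and AT1G52610 on chromosome 1, AT2G01840 and AT2G26630 on chromosome 2, AT3G09170 and AT3G47330 on chromosome 3, AT4G03790 and AT4G28960 on chromosome 4, and AT5G26350 and AT5G43800 on chromosome 5.

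**Figure D4:**
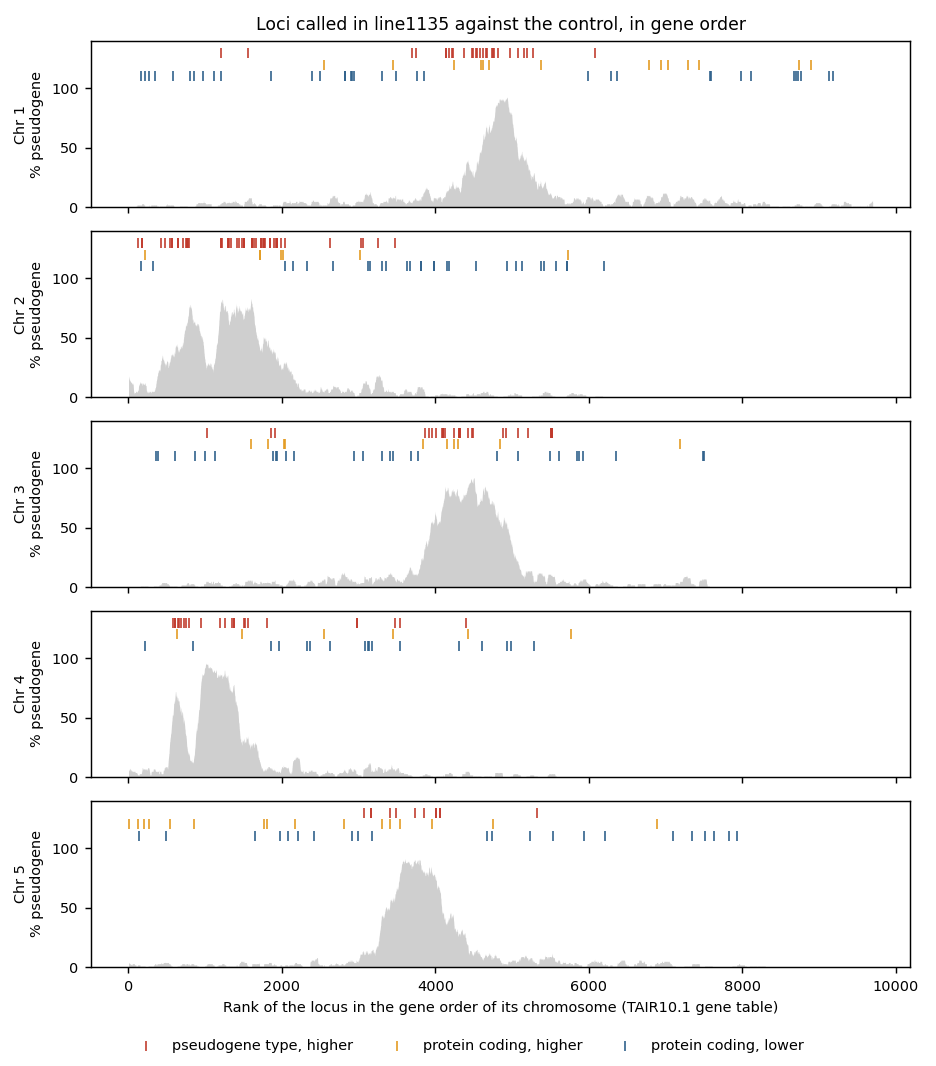
Loci called in line1135 against the control by their rank in the gene order of each chromosome, with ticks for pseudogene-type loci called higher (red), protein-coding genes called higher (orange) and protein-coding genes called lower (blue), over the pseudogene-type share of the neighbouring loci in grey (%). Red ticks crowd over and beside the grey peaks on all 5 chromosomes, and blue ticks spread along the arms.

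Reactivated loci gathered where the class itself is dense, yet a member was called about as often inside as outside these regions. Where at least 50% of neighbours were of pseudogene type, 69 of 476 probe sets of the class were called higher (14.5%), and elsewhere 79 of 513 (15.4%). Among _at probe sets alone these were 26 of 391 (6.65%) and 35 of 407 (8.60%). The shares inside and outside thus stayed close to the 15% of the whole class, or were lower on both sides where shared probes were left out.

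For protein-coding genes the shares inside and outside lay further apart. Of the 258 measured in pseudogene-rich neighbourhoods 10 were called higher (3.88%), and of the 12116 elsewhere 43 (0.355%). On chromosome 2 the counts were 0 of 61 in such neighbourhoods and 7 of 1839 (0.381%) elsewhere. On the other chromosomes the share inside lay between 3.70% and 6.52% and the share elsewhere between 0.245% and 0.457%. Their counts inside were 2 of 36 on chromosome 1, 4 of 88 on chromosome 3, 1 of 27 on chromosome 4 and 3 of 46 on chromosome 5. Such counts are too small to tell the chromosomes apart, chromosome 2 included. Of the decreases, 1 lay inside (0.388% of 258) and 129 elsewhere (1.06% of 12116), too few inside to compare. With the limit set at 30% of neighbours, 14 of 581 (2.41%) inside and 39 of 11793 (0.331%) outside were higher, and at 70%, 6 of 101 (5.94%) inside and 47 of 12273 (0.383%) outside. With only protein-coding and pseudogene-type neighbours counted, and the limit at 50%, 11 of 329 (3.34%) inside and 42 of 12045 (0.349%) outside were higher. The counts rest on the offset. At an offset of 64, with all neighbours counted and the limit at 50%, they were 2 of 258 inside and 17 of 12116 outside. In neighbourhoods with at least 80% pseudogene-type loci 4 of 41 were higher (9.76%), among them QQS and AT5G29050. Adjacency to a reactivated locus was less common. Of the 53 higher genes 6 lay within 10 loci of a pseudogene-type locus called higher (11.3%), against 406 of 12374 tested (3.28%) and 5 of the 130 lower ones (3.85%). Among them were AT1G36240 at 6 loci and AT2G15560 at 8 loci, while SQN lay 20 loci and QQS 24 loci from the nearest. Other large increases lay far from any that was measured and called, such as AT5G01080 at 3052 loci, AT5G07570 at 2216 loci and AT1G59930 at 860 loci. Only loci with a named probe set could count. Chromosome 5 had 117 pseudogene-type probe sets and 8420 loci in the gene table. Unmeasured pseudogene-type loci may therefore lie nearer. These shares describe the arrays, since neighbouring loci are not independent, and no test was made of them. The 50% limit was itself chosen with earlier results of these data known.

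**Figure D5:**
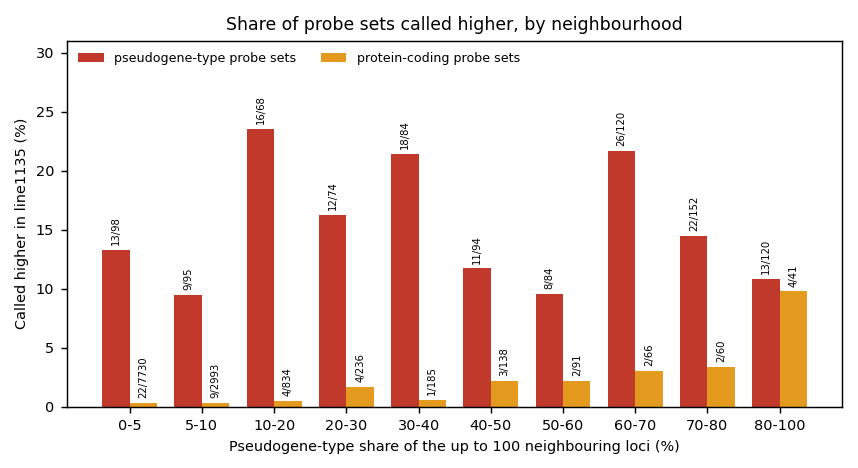
Share of probe sets called higher in line1135 (%, with called over tested above each bar) by the pseudogene-type share of the up to 100 neighbouring loci (%), for pseudogene-type probe sets in red and protein-coding ones in orange. The red bars lie between 9.47% and 23.5% with no trend along the axis, and the orange bars run from 0.285% in the poorest to 9.76% in the richest neighbourhoods, with a dip to 0.541% at 30 to 40%.

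The strongest pseudogene-type increases read by _at probe sets show the range of settings. AT4G05640, in a neighbourhood with 80% pseudogene-type loci on chromosome 4, had 1709, 1835 and 1660 in line1135 and 4.51, 3.55 and 4.17 in the control, at least 289-fold higher (adjusted p = 1.75e-11). AT3G47320, on the arm of chromosome 3 with 9% in its neighbourhood, had 1405, 1209 and 1425 in line1135 and 6.03, 4.72 and 0.312 in the control, at least 224-fold higher (adjusted p = 9e-11). A bright reactivated locus thus occurred both in a dense and in a sparse setting. The adjacent locus AT3G47330 reached 199, 199.9 and 208 in line1135 and had 1.07, 4.96 and 8.85 in the control, from a probe set with shared probes. On chromosome 1 AT1G43840 was at least 103-fold and AT1G34530 at least 89.4-fold higher. On chromosome 5 AT5G27180 had 462, 405 and 416 in line1135 and 1.92, 0.206 and 8.83 in the control (4.52 ± 0.14), and AT5G43800, with 1% in its neighbourhood, had 265, 280.1 and 269 in line1135 and 6.71, 0.950 and 4.62 in the control (3.85 ± 0.11). The largest _at increases on chromosome 2 were smaller, with AT2G14630 at least 18.8-fold and AT2G14230 at least 15.9-fold higher and AT2G26630 at 2.84 ± 0.18.

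Line774 shares its control arrays with line1135, so the lines were compared by the direct difference between them. The contrast of line774 with the control was fitted too, but its calls were not used for this comparison. Line1135 was called higher than line774 at 99 probe sets (0.435%) and lower at 38 (0.167%). Leaving out line1135 replicate 1 or line1135 replicate 3 reduced the 38 to 25, and leaving out line774 replicate 2 reduced it to 22. Of the 148 pseudogene-type probe sets called higher in line1135 against the control, 76 were also called higher in line1135 than in line774. Without probe sets that share probes, 44 probe sets in all were higher in line1135 than in line774. For the protein-coding genes these counts were 12 of 53 higher and 5 of 130 lower. All these probe sets were chosen through the same line1135 arrays, which favours a difference from line774 in the same direction. The counts are therefore not independent of that choice. SQN had 625, 819 and 729.5 in line1135, against 117, 176 and 128 in line774, a difference of 2.26 ± 0.14 (adjusted p = 9.1e-06). QQS differed by -0.01 ± 0.08 (adjusted p = 0.974) between the lines, and OCT1 by -0.39 ± 0.21 (adjusted p = 0.436). AT4G22490 had 46.2, 49.1 and 32 in line1135, against 380.0, 302 and 191 in line774, which overlapped the control values (-2.36 ± 0.20, adjusted p = 9.32e-05). AT3G16670 had the same pattern, with 113, 102 and 71.6 in line1135 and 666, 436 and 312 in line774 (-2.08 ± 0.23, adjusted p = 0.000651), against 456, 456 and 363 in the control. AT1G47400 had a difference of -1.08 ± 0.12 between the lines (adjusted p = 0.000823), although it was higher in line1135 than in the control.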

How the data were processed

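Biotin-labelled RNA, amplified by in vitro transcription from the 3′ end, was read on 1 ATH1 array per sample, per the labels' protocols. The deposited intensity of each probe set is on a linear scale, and the submitters' processing notes name MAS5 and GCOS, with versions not given in the sources used here. Each deposited intensity column had a 2% trimmed mean near 100, so arrays had been scaled by 1 factor each.

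All probe sets but the 64 controls among the 22810 were tested, with no filter on signal. Values were transformed to log2(signal + 16) and fitted with limma 3.58.1 in R 4.3.3 (1 mean per group over all 9 arrays, eBayes with an intensity trend, 6 residual degrees of freedom). The Benjamini-Hochberg adjustment ran over the whole array. The number of arrays limits the precision. The 27 Bacillus probe sets gave the background. A bound is the mean log2 signal of the bright group minus the mean log2 background of the arrays of the dim group. The fit was tested on simulated data for line1135 against the control with 22746 probe sets. Of 50 changed at each size it found 100% of those simulated at 2 and at -2 on the log2 scale, 98% of those at 1.2 and 94% of those at -1.2. It also called 1 unchanged probe set. The changed probe sets were all drawn from those with an average control signal above 100, so no dim one was simulated as changed. These shares therefore do not tell how often the fit finds changes in loci that are dim in the control, as many of the called increases were.

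The platform annotation named 1 gene for 13513 probe sets, several for 503 (no gene was taken from these) and none for 8730, which are unnamed here. Of those with 1 gene, 13436 matched the RefSeq gene table of TAIR10.1, which supplied types and gene order only. Named genes were the 15 largest protein-coding increases and 20 largest decreases without overlap of the groups, up to 4 called members of each of 38 gene lists (the 2 with the lowest p where none was called), the 3 largest _at increases of pseudogene type per chromosome, and the outermost loci. Where several probe sets read a gene, the brightest was used. Called genes with a symbol and the amino acid list were added after their values were seen. Members, lists and the 50% limit for a pseudogene-rich neighbourhood were chosen with earlier results of these data known. Alternatives were other offsets, signal filters, scalings, no intensity trend, the 2 groups alone, the replicate block and leaving out shared probes. Other thresholds and leaving out each array were run too. Added after seeing the data were other definitions of the neighbourhood and the same alternatives for the difference between the lines. The definitions used limits of 30%, 50% and 70%, and counted either all neighbouring loci or protein-coding and pseudogene-type ones alone. Sequences were not used here, and 1 family of transcription factor genes is not reported here. Figures were drawn with matplotlib 3.10.9.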

Additional observations from a re-analysis of the deposited data

Results flagged for a closer look

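The genes below differed between line1135 and line774 in the direct test at 2-fold or more, among the named genes that were called against the control. That choice used the same line1135 arrays, so it is not independent of the differences. The values are log2 differences of signal + 16, line1135 minus line774, from 3 arrays in each line, and limma's adjusted p-values lay between 4.84e-07 and 0.0109.

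Among protein-coding genes, the difference was 4.71 for AT1G59930, 2.84 for AT1G36240, 2.26 for SQN, 2.22 for AT2G13760, 1.97 for AT5G07570 and 1.89 for AT5G29050. AT2G13760 had signals of 45.1, 94.9 and 81.5 in line1135, against 3.40, 2.30 and 2.30 in line774, and AT5G29050 had 51.9, 38.6 and 62.9 in line1135, against 0.441, 5.45 and 0.415 in line774. Both were thus at background in line774, as they were in the control.

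Among pseudogene-type loci, the difference was 2.52 for AT1G12720, 1.92 for AT4G03790, 1.82 for AT3G33080, 1.79 for AT4G04590, 1.62 for AT5G26350 and 1.62 for AT4G18410. It was 1.4 for AT2G14630, 1.34 for AT4G05640 and 1.2 for AT1G10160. AT1G12720 had 183, 215 and 183 in line1135, against 18.4, 26.8 and 17.3 in line774. AT3G33080, with 88% pseudogene-type loci in its neighbourhood, had 123, 129.9 and 139.9 in line1135 and 35.2, 18.7 and 24.6 in line774.

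The negative differences were -1.08 for AT1G47400, -1.27 for LCR68, -1.30 for OSM34, -2.08 for AT3G16670 and -2.36 for AT4G22490. LCR68 had 422, 477 and 433 in line1135, against 947, 988 and 1381 in line774 and 1015, 1020 and 988 in the control. OSM34 had 363, 601 and 461 in line1135, against 1659, 1021 and 951 in line774 and 1060, 1140 and 872 in the control. In LCR68 and OSM34 the values of line774 and the control overlapped, and those of line1135 lay below both. The difference of OSM34 had an adjusted p of 0.0507 without line1135 replicate 3, and that of AT1G47400 was under 2-fold without line1135 replicate 3 or line774 replicate 1.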

How the results depend on the processing

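The counts depended most on the offset and the fold limit. At an offset of 1 there were 501 higher and 490 lower probe sets, with 232 of pseudogene type higher and 165 protein-coding higher and 236 lower. At an offset of 64 these were 111, 113, 77, 19 and 53. With no minimum fold, 1532 were higher and 1560 lower, 688 and 771 of them protein coding. Above the 50th percentile of signal 135 were higher, 73 of pseudogene type and 34 protein coding. Without probe sets that share probes 146 were higher, 61 of pseudogene type. Leaving out each array in turn gave 230 to 260 higher and 230 to 300 lower probe sets, 146 to 151 of pseudogene type higher, and 47 to 60 higher and 107 to 147 lower protein-coding ones. With the replicate number as a block the counts were 246, 278, 148, 56 and 129, and the labels do not say that a number marks a shared batch or day. Deviations of same-numbered arrays correlated positively in 9 of 9 pairs (0.0579 to 0.157) and those of differently numbered arrays in 6 of 18 (-0.187 to 0.104). Not every array correlated best with its own number, and not every pair passed 0.1, so whether the numbers pair the samples is not settled, and the values given above come from the fit without the block. For line1135 against line774, there were 71 lower at an offset of 1, 48 higher and 13 lower at 64, 256 and 198 with no minimum fold, 54 higher above the 50th percentile, 44 higher without shared probes and 17 lower at an adjusted p under 0.01. Leaving out each array gave 95 to 104 higher and 22 to 48 lower. Of the 20 differences between the lines given above, 13 kept their call under all alternatives run and 0 reversed. At an offset of 1, AT2G14630 and AT5G26350 lost theirs, with adjusted p-values of 0.0767 and 0.0869. Quantile normalization and median scaling moved the median change of all probe sets to 0.00 and 0.01. For named genes that passed at any fold but were not called at 2-fold, the adjusted p under 0.05 was followed in place of the call. Of 97 gene results, 71 kept direction and this status under all alternatives run, and none of 2019 values reversed. For 15 genes, among them uncalled ones such as AUR1 and WRKY22, the status was lost without some single array. The other 11 lost their call at the offset of 64. Changes of dim loci had a size that holds only for the offset used. The cause of these shifts was not tested. Signals near background limit what can be said of decreases in the pseudogene class.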
